A study of Homo sapiens with 20 samples.

Results

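The 1328 regions described here were gene promoters at which BMAL1 or HIF2α CUT&RUN gave a peak although the DNA at the summit held neither the palindromic E-box CACGTG nor the core of a hypoxia response element (HRE, ACGTG or GCGTG). The peaks of 4 lists were merged wherever they overlapped by at least 1 bp, which gave 8280 regions, and the summit of a region was that of its peak with the highest −log10 p. A region was a member when this summit lay within 1 kb of a GENCODE transcript start on GRCh37 (hg19) and no E-box or HRE core on either strand lay wholly within 100 bp of it. Of the 8280 regions, 3280 (39.6%) had a promoter summit. The 1328 members were 40.5% of these, 1688 promoter regions held an HRE core and no E-box, and 264 held an E-box, which itself contains an HRE core. The rule used position and sequence around the summit, and peak strength only to choose which peak's summit stood for a region. It set no limit on presence in the lists, on strength or on other motifs.

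The chromatin came from A498, a human clear cell renal cell carcinoma line that carried a lentiviral shRNA and was kept under puromycin. The control line expressed a control shRNA (shCNT) and the other line an shRNA against BMAL1 (shBMAL1). Each line was processed with a BMAL1 antibody and a HIF2α antibody, and the comparison asks where each factor sits on chromatin and what BMAL1 depletion changes. The labels give 4 libraries for each pairing of line and antibody and 2 IgG libraries for each line, but 1 peak list for each pairing was analysed here, and none of these lists is replicated, so the spread between libraries is unknown. The study's text calls its CUT&RUN repeats biological in one place and technical in another.

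BMAL1 (ARNTL) is the clock protein that pairs with CLOCK and binds E-boxes, and HIF2α (EPAS1) is a hypoxia-inducible factor that pairs with ARNT and binds HREs. A498 cells lack functional VHL, the ubiquitin ligase subunit that marks HIF2α for destruction, so HIF2α is present in ordinary oxygen. Many promoters carry other recognition sites near their start. GC boxes are bound by Sp1 and related zinc finger proteins, CCAAT boxes by the trimer NF-Y, CCGGAAG by ETS factors, TGACTCA by AP-1 dimers of JUN and FOS proteins, and the TATA box by the TATA-binding protein.

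The sequences below are from the members that stood highest in all 4 lists or that were the strongest with a given motif, and they show examples of the other motifs at these summits. Members with none of the motifs searched, among them the shared promoter of EIF2AK3 that stood high in all 4 lists, are not printed. Each is GRCh37 sequence within 100 bp of the summit and outside annotated exons, printed 5′ to 3′ on the strand of the nearest gene. The capitals mark only the motif named for each, matched on either strand. In TBL2, on the minus strand at chr7:72993152-72993271, the capitals are Sp1 boxes. In AP3D1, on the minus strand at chr19:2151651-2151770, they are CCAAT boxes, and in PPP2R1A, on the plus strand at chr19:52692985-52693104, a CCAAT box and an Sp1 box. In RNU6ATAC38P, on the plus strand at chr20:44407739-44407858, they are a CCAAT box and an AP-1 site. In ANKRD37, on the plus strand at chr4:186317866-186317964, the capitals mark an ETS site. In CCDC9, on the plus strand at chr19:47760158-47760277, they mark a YY1 site, and in PRCC, on the plus strand at chr1:156737019-156737138, a ZNF143 site.
TBL2: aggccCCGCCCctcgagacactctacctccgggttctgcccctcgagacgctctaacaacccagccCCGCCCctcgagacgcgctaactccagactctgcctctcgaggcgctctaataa
AP3D1: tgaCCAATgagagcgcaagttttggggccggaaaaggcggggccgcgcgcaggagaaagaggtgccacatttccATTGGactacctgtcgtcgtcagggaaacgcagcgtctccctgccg
PPP2R1A: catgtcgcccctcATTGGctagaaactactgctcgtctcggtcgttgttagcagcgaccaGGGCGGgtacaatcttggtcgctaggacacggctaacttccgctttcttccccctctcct
RNU6ATAC38P: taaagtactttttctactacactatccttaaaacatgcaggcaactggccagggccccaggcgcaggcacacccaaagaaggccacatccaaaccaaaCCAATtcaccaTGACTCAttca
ANKRD37: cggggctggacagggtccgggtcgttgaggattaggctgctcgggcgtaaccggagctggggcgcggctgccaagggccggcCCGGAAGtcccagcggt
CCDC9: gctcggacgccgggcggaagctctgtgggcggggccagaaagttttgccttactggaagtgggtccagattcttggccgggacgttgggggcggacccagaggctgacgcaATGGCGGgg
PRCC: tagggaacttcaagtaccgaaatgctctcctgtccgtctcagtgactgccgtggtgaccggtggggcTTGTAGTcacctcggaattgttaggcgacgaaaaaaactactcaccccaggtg

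Most members had a BMAL1 peak, as did most regions of any kind, and most were called once. A peak of the BMAL1 antibody lay in 966 members (72.7%, against 66.1% of all regions), and a peak of the HIF2α antibody in 580 (43.7%, against 50.9%). The shBMAL1 BMAL1 list held 736 members (55.4%, 95% Wilson interval 52.7 to 58.1%), against 51.3% of all regions. The shCNT BMAL1 list held 447 (33.7%, 31.2 to 36.2%), against 28.3% of all regions. The shCNT HIF2α list held 337 (25.4%, 23.1 to 27.8%), against 28.3% of all regions. The shBMAL1 HIF2α list held 373 (28.1%, 25.7 to 30.6%), against 38.4% of all regions. These intervals cover counting error over regions only. The authors removed duplicate reads before calling peaks, and any PCR copies that remained are not independent molecules.

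Compared with the other promoter regions, the members were richer in BMAL1 peaks of the knockdown line and poorer in HIF2α peaks. Every region has a peak in some list, so the shares of the lists are not independent. The share in the shBMAL1 BMAL1 list was 55.4% against 46.6% of the 1952 promoter regions with an E-box or HRE. The share in the shCNT HIF2α list was 25.4% against 38.4%, and in the shBMAL1 HIF2α list 28.1% against 41.4%. In the shCNT BMAL1 list the members (33.7%) stood level with the HRE class (33.9%), while 55.3% of the E-box class had such a peak. The lists differ in length, with shCNT BMAL1 the shortest and shBMAL1 BMAL1, at 4261 peaks, the longest, and the lowest pileup called was 4 reads in both shCNT lists and 3 reads in both shBMAL1 lists. With every list cut to its strongest peaks, as many as the shortest list holds, 41.8% of the members lay in the shBMAL1 BMAL1 list and 45.3% in the shCNT BMAL1 list, so the order of the BMAL1 lists turned. The order of the HIF2α lists turned as well, with 33.9% of the members in the shCNT list and 25.6% in the knockdown list.

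**Figure D1:**
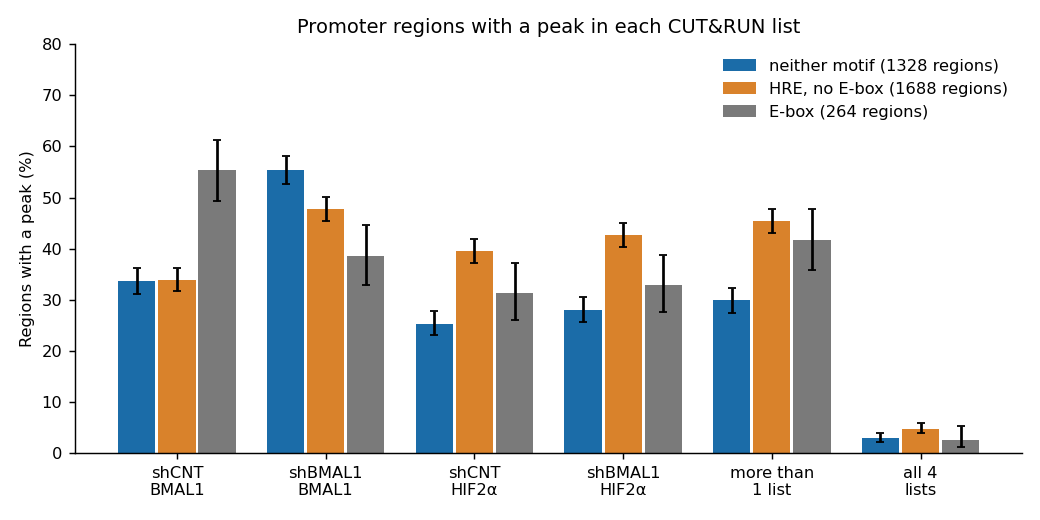
Share of promoter regions with a peak in each list (y axis, percent) for regions with neither motif, with an HRE and no E-box, and with an E-box. Error bars are 95% Wilson intervals over regions. The members stand highest in the shBMAL1 BMAL1 list (55.4%) and lowest of the classes in both HIF2α lists (25.4% and 28.1%).

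Of the 1328 members, 931 (70.1%) had a peak in 1 list, 269 in 2 lists, 88 in 3 lists and 40 (3.01%) in all 4. Over all regions 66.6% had a peak in 1 list and 2.90% in all 4, close to the members' shares. For the other promoter regions these shares were 55.1% and 4.56%. A peak in more than 1 list was found at 397 members (29.9%), against 33.4% of all regions and 44.9% of the other promoter regions. The difference from the other promoter regions was −15.0 percentage points (Newcombe 95% interval −18.2 to −11.6). The largest pattern was a peak in the shBMAL1 BMAL1 list alone, at 448 members (33.7%) against 21.3% of the other promoter regions. Next came the shCNT BMAL1 list alone (175), the shBMAL1 HIF2α list alone (166), the shCNT HIF2α list alone (142) and both BMAL1 lists (125). Peaks in both HIF2α lists and in no BMAL1 list were seen at 54 members (4.07%) against 13.5% of the other promoter regions.

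The strongest member of the shCNT BMAL1 list was EEF1A1, the gene of the translation elongation factor that brings aminoacyl-tRNA to the ribosome. Its region had a summit 99 bp upstream of the start, a pileup of 835 reads, a local background of 116.5 reads and no peak in the other 3 lists. With that background the fold enrichment was 7.11. No other member had a local background above 10.2 reads, the value at BMAL1 itself. The BMAL1 region lay 200 bp downstream of a BMAL1 start and was also in the shCNT BMAL1 list alone, with a pileup of 52 reads and a fold enrichment of 4.74.

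TBC1D10B, a GTPase-activating protein for Rab proteins, was among the 3 strongest members of the shCNT BMAL1 list and had 17 reads in each BMAL1 list, with 12 and 6 reads in the HIF2α lists. The members next described were chosen for their strength in a BMAL1 list or with a motif, and each had its higher pileup in the knockdown list, while others such as BMAL1 and PER2 had theirs in shCNT. PCBP3, which encodes a poly(rC)-binding protein, had pileups of 15 reads in shCNT BMAL1 and 76 reads in shBMAL1 BMAL1, with a fold enrichment of 66.9 in the latter. DNPEP, which encodes an aspartyl aminopeptidase, had 11 and 37 reads. DLC1 had 35 reads in the shBMAL1 BMAL1 list alone. VSIG10L-AS1, a long non-coding RNA, had 15 and 25 reads, and FSTL3, a secreted inhibitor of activin, had 9 and 25 reads. None of the regions of PCBP3, DNPEP, DLC1, VSIG10L-AS1 and FSTL3 had a peak in a HIF2α list. Pileups were not scaled between libraries, so a higher pileup in one list than in another is a description of the lists. The lowest background differed too, at 0.168 reads in shCNT BMAL1 and 0.0839 in shBMAL1 BMAL1. For the HIF2α antibody it was 0.209 reads in shCNT and 0.109 in shBMAL1, so a lower pileup in a knockdown list need not be a loss of binding.

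The members with the highest HIF2α signal included a known hypoxia gene. ANKRD37, an ankyrin repeat gene that HIF induces, had pileups of 49 reads in shCNT HIF2α and 24 reads in shBMAL1 HIF2α and no peak in a BMAL1 list. LINC01320, a long non-coding RNA, had 45 and 26 reads in the same lists. SEC61B, a subunit of the channel that moves proteins into the endoplasmic reticulum, had 29 and 23 reads. HPCAL1, a calcium-binding protein of the neuronal sensor family, had its summit 998 bp downstream of a start, just inside the 1 kb limit. It was in all 4 lists, with 5 and 6 reads for the BMAL1 antibody and 31 and 25 reads for the HIF2α antibody, shCNT first. OLMALINC, a long non-coding RNA, had 5, 5, 22 and 21 reads in that order. The strongest members found in a single HIF2α list were lower, with 11 reads at PDCD6-DT in shCNT HIF2α and 12 reads at DMTF1 in shBMAL1 HIF2α.

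The 40 members with a peak in all 4 lists included promoters of widely expressed genes. Their order here is by the lowest percentile within the 4 lists. TBL2, a WD-repeat protein of the endoplasmic reticulum, had 8 and 16 reads for the BMAL1 antibody and 16 and 8 reads for the HIF2α antibody, again shCNT first. The shared promoter of EIF2AK3, the kinase PERK that slows translation in endoplasmic reticulum stress, and of its divergent transcript had 11, 10, 21 and 17 reads. RNU6ATAC38P, a small nuclear RNA pseudogene, had 8, 9, 10 and 12 reads. AP3D1, a subunit of the AP-3 vesicle adaptor, had 13, 12, 22 and 12 reads. PPP2R1A, the scaffold subunit of protein phosphatase 2A, had 10, 7, 15 and 8 reads. AP3D1, PPP2R1A, TBL2 and EIF2AK3 had a higher HIF2α pileup in shCNT than in the knockdown line, and RNU6ATAC38P had the reverse. The lowest background was also higher in the shCNT HIF2α list (0.209 against 0.109 reads), and pileups were not scaled for it. Starts on both strands lay within 1 kb at 47.5% of the 40 members, against 29.4% of all members.

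Peak strength was described within each list by percentile of −log10 p, since these values compare only within a list. The members' median percentile was below that of the other promoter regions in all 4 lists. It was 48.1 against 57.4 in shCNT BMAL1 and 51.2 against 61.3 in shBMAL1 BMAL1. It was 33.5 against 54.8 in shCNT HIF2α and 41.0 against 57.8 in shBMAL1 HIF2α. A member was the stronger of a pair, drawn as 1 member and 1 other promoter region of the same list, in 44.03%, 42.6%, 34.2% and 36.5% of pairs in that order of lists. With −log10 p of at least 8 the share in shCNT BMAL1 was 47.4% (42.8 to 52.0), an interval that includes 50%. The median pileup of members was 6, 5, 6 and 5 reads, so most were called from few reads. Strength rose with the number of lists: in shCNT BMAL1 the median percentile was 37.7 for members found there alone and 74.5 for those in all 4 lists, and in shCNT HIF2α it was 27.02 and 53.3.

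BMAL1 knockdown asks whether a shCNT peak was called again in shBMAL1 cells. For the BMAL1 antibody, 217 of 447 members (48.5%, 43.9 to 53.2%) had a peak in both lists, against 47.7% over all regions. The E-box class kept 33.6% and the HRE class 56.5%. The members' share was 15.0 points above that of the E-box class (5.76 to 23.5), and 18.8 points above it within quartiles of shCNT strength (Mantel-Haenszel difference, 10.2 to 27.4). Against the HRE class the difference was −7.92 points (−14.0 to −1.75), and −6.01 within quartiles (−11.9 to −0.0754). Against both classes pooled the difference was −3.26 points (−9.13 to 2.63), an interval that includes 0.

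For the HIF2α antibody, 130 of 337 members (38.6%, 33.5 to 43.9%) had a peak in both lists, against 55.8% over all regions and 59.5% of the other promoter regions. The difference from the other promoter regions was −21.0 points (−27.1 to −14.6). Within quartiles of shCNT strength it was −9.47 points (−15.4 to −3.50). Against the HRE class alone, which is 666 of these 749 regions, it was −10.2 within quartiles (−16.3 to −4.03), and against the E-box class −4.28 (−14.7 to 6.19), an interval that includes 0. In the strongest quartile 36 of 38 members (94.7%) were found again, and in the weakest 28 of 122 (22.95%), against 92.0% and 27.2% over all regions. Read in the other direction, 29.5% of the members in the shBMAL1 BMAL1 list and 34.9% of those in the shBMAL1 HIF2α list had a shCNT peak. Over all regions these shares were 26.3% and 41.1%, and over the other promoter regions 40.9% and 55.2%.

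**Figure D2:**
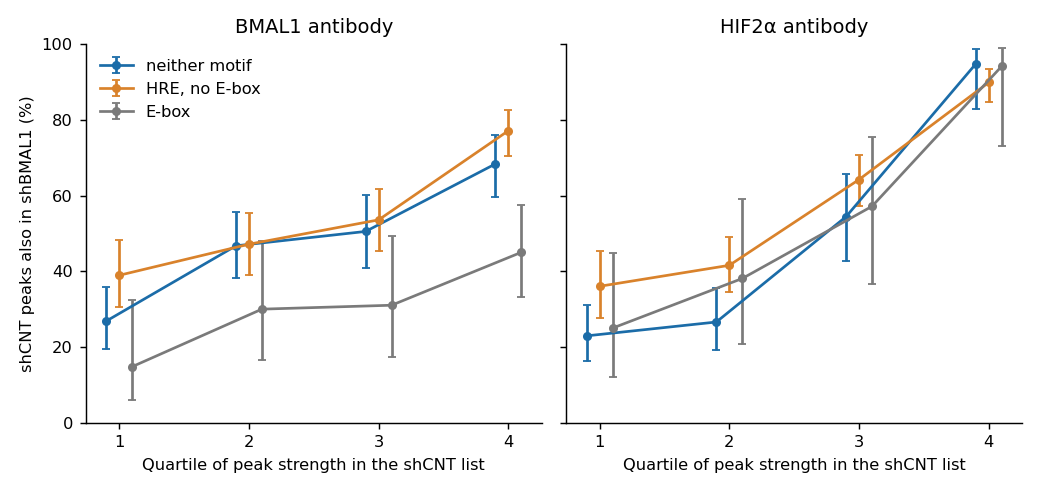
Share of shCNT peaks also called in the shBMAL1 list of the same antibody (y axis, percent) by quartile of peak strength in the whole shCNT list (x axis, 1 the weakest), for the BMAL1 antibody and the HIF2α antibody. Bars are 95% Wilson intervals. For BMAL1 the members lie above the E-box class in each quartile, and for HIF2α they rise from 22.95% to 94.7%.

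The distance of the nearest HRE core was followed beyond the 100 bp that the rule excluded. For 191 members (14.4%) the far end of the nearest core lay over 100 and up to 120 bp from the summit, and for a further 454 (34.2%) over 120 and up to 200 bp away. For 176 members (13.3%) no core lay within 500 bp. Protein-coding starts without a region in any list, taken where they too had no HRE core within 100 bp, had 8.72% at over 100 and up to 120 bp and 25.3% with none within 500 bp. The members' share at over 100 and up to 120 bp was higher by 5.66 points (3.79 to 7.72). It was 17.4% among members with HIF2α peaks alone and 11.4% among those with BMAL1 peaks alone, a difference of 6.04 points (1.71 to 10.8).

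Presence in both HIF2α lists was lower where the core was farther away, and presence in the shBMAL1 BMAL1 list was higher. Every region has a peak in some list, and 70.1% of the members had a peak in 1 list. A lower HIF2α share therefore tends to bring a higher BMAL1 share by construction, and the opposite courses are not separate results. The share in the shCNT HIF2α list was 33.5% with a core at over 100 and up to 120 bp, 28.2% at over 120 and up to 200 bp, 22.3% at over 200 and up to 500 bp and 18.2% with none within 500 bp. In the shBMAL1 HIF2α list the same shares were 37.7%, 33.3%, 21.5% and 23.3%. In the shBMAL1 BMAL1 list they ran the other way, at 50.8%, 48.7%, 60.4% and 63.6%. In the shCNT BMAL1 list they were 37.2%, 33.5%, 34.7% and 27.3%, and the nearest bin exceeded the members with no core within 500 bp by 9.90 points (0.313 to 19.2; 8.49 within GC bins, −1.88 to 18.9). Between the members with a core at over 100 and up to 200 bp (645) and those with none within 200 bp (683), the shCNT HIF2α share differed by 8.54 points (3.85 to 13.2) and the shBMAL1 HIF2α share by 12.6 points (7.78 to 17.4). The shBMAL1 BMAL1 share differed by −11.9 points (−17.2 to −6.55) and the shCNT BMAL1 share by 1.78 points (−3.30 to 6.85). Within bins of 5% GC content, a comparison added after the data were seen, these differences were 8.93, 13.2, −12.8 and 0.665 points. The promoter regions just outside the rule, with a core whose far end lay 81 to 100 bp away (241 regions), had 38.6% in shCNT HIF2α and 48.1% in shBMAL1 BMAL1, against 33.5% and 50.8% of the members just inside it. At the edge of the promoter width, 38 members had a summit in the last 100 bp inside it, and 23.7% of them were in more than 1 list. Of the 41 regions without either motif in the first 100 bp outside it, 17.1% were.

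**Figure D3:**
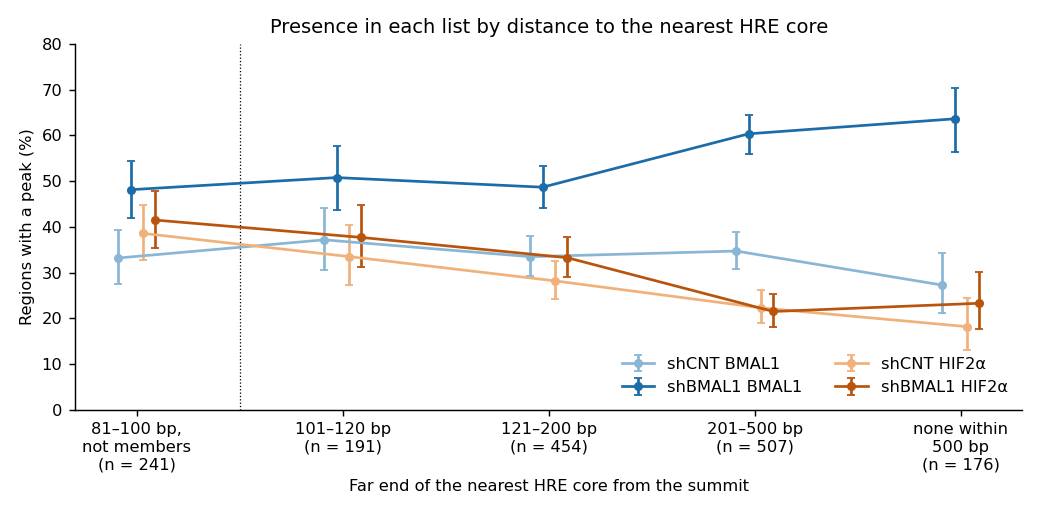
Share of promoter regions with a peak in each list (y axis, percent) by distance from the summit to the far end of the nearest HRE core (x axis), with 95% Wilson intervals. Left of the dotted line are regions that the rule left out. The shCNT HIF2α share falls from 33.5% to 18.2% over the members while the shBMAL1 BMAL1 share rises from 50.8% to 63.6%. Every region has a peak in some list, so these shares are not independent.

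Among the strongest HIF2α members a core just past the window was frequent. Of the 13 members in the top 10% of the shCNT HIF2α list, 7 had a core at over 100 and up to 120 bp, 5 at over 120 and up to 200 bp and 1 farther away. Of the 15 in the top 10% of the shBMAL1 HIF2α list, 6 had a core at over 100 and up to 120 bp and 7 at over 120 and up to 200 bp. Of the 50 members in the top 10% of shCNT BMAL1, 16 had a core at over 100 and up to 120 bp, and 15 of 88 did in shBMAL1 BMAL1. The stretches below are the 30 bases around that core in the named members where it lay over 100 and up to 120 bp away, read on the strand on which the capitals spell ACGTG or GCGTG. They were chosen after their values were seen, and they show how near these summits were to an HRE core. On the plus strand lie ANKRD37 at chr4:186317840-186317869, OLMALINC at chr10:102133756-102133785, PER2 at chr2:239197432-239197461, FSTL3 at chr19:680628-680657 and CCDC9 at chr19:47760046-47760075. On the minus strand lie PDK1 at chr2:173420788-173420817, BHLHE40 at chr3:5020676-5020705, EGLN1 at chr1:231558029-231558058, HPCAL1 at chr2:10471373-10471402, DNPEP at chr2:220252614-220252643, AP3D1 at chr19:2151802-2151831, PPP2R1A at chr19:52692918-52692947 and JUND at chr19:18392706-18392735.
ANKRD37: cagtgtttgtgtACGTGcggccgtggcggg
PDK1: ggtacgtgagggACGTGgcgggcagcaggg
EGLN1: gggccgtggtgtACGTGcagagcgcgcaga
BHLHE40: gagaagttggtaACGTGggcgaacctgccc
PER2: acatagtggaaaACGTGaccgcgcgcgccg
HPCAL1: caggagaggcggACGTGctgagtaacaggc
OLMALINC: tcactggggagaACGTGagtaaaagcacag
JUND: acgccacccgggACGTGccttggcggaggc
DNPEP: gcggccggggaaGCGTGatgaaggcctacg
AP3D1: agcctctaagggGCGTGgctagggctcaga
PPP2R1A: gaaggcttctgcGCGTGcgtcggtggtaat
FSTL3: tgctaccgcaatGCGTGagggccaggcctg
CCDC9: ggtcggggcgggGCGTGgccagagcctggg
The cores of PER2, BHLHE40 and OLMALINC are part of a CACGTT, which the rule did not count as an E-box.

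Motifs were counted as exact matches on either strand in the 200 bp around the summit. Their background was 1 start for each of the 17014 protein-coding genes without a region within 1 kb. Of these windows, 10045 held no E-box or HRE core, as the rule required of the members. Ratios below are the members' share over that of these starts, with a 95% interval on the log scale. Shares of all protein-coding starts are given beside them, over 19819 windows. Those windows were not filtered for E-boxes or HRE cores, so they are not matched to the members' rule. The members' median GC content was 60.25% against 63.5% in the 10045 windows, and their summits lay at a median of 57 bp upstream of the start. The other promoter regions, also compared below, hold an HRE core near the summit by rule. Their median GC content was 64.5%, and motif comparisons with them were not matched for GC content.

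The Sp1 box GGGCGG was the most frequent motif, in 650 members (48.9%, 46.3 to 51.6%). It was present in 46.5% of the starts without a region, a ratio of 1.05 (0.993 to 1.12), and in 53.7% of all protein-coding starts, unfiltered. Against starts weighted to the members' GC content their share was 37.8%, a ratio of 1.29. The other promoter regions held it more often (57.6%, ratio 0.849, 0.794 to 0.908), and windows 2 kb away less often (5.97%). The comparison with the other promoter regions was not matched for GC content (median 64.5% against 60.25% in the members). The matches lay at a median of 82 bp upstream of the start, and 77.1% of them were upstream. Sp1 boxes were commoner where the summit was near the start: 56.6% of members within 100 bp, 51.7% at over 100 and up to 300 bp and 36.3% farther out held one.

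The CCAAT box was in 452 members (34.0%, 31.5 to 36.6%), against 24.998% of the starts without a region (ratio 1.36, 1.25 to 1.48) and 25.1% of all protein-coding starts. Against the same starts shifted to the members' median offset, a background added after the data were seen, the ratio was 1.22 (1.13 to 1.32). The other promoter regions did not differ detectably (32.0%, ratio 1.06, 0.963 to 1.17). The longer form CCAATCA, which contains CCAAT, was in 7.98% of members against 5.69% of the starts without a region (1.40, 1.15 to 1.71) and 5.80% of all starts. Against the shifted starts its ratio was 1.16 (0.950 to 1.41), an interval that includes 1. Both an Sp1 box and a CCAAT box were present at 250 members (18.8%), a CCAAT box alone at 202, an Sp1 box alone at 400 and neither at 476 (35.8%).

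The AP-1 site TGACTCA stood out most from the starts without a region. It was in 106 members (7.98%, 6.64 to 9.56%) against 2.60% of these starts (ratio 3.07, 2.47 to 3.82) and 2.11% of all protein-coding starts. The other promoter regions held it at 5.38%, and the ratio of the members to them was 1.48 (1.14 to 1.93). The E-box class alone held it at 9.85% (ratio 0.810, 0.539 to 1.22), and over all regions, distal ones included, the share was 16.1%. Windows 2 kb away held it at 2.89%. Unlike Sp1 and CCAAT boxes, AP-1 sites had no side: their median offset was 2.5 bp upstream of the start and 50.4% lay upstream. Within 100 bp of the start 6.94% of members held an AP-1 site (ratio 2.67, 1.87 to 3.81), and beyond 300 bp 10.7% did (4.12, 3.01 to 5.63). Both ratios are to the same windows centred on starts, so they are not matched for position or GC content. The median GC content of these members was 63% within 100 bp and 54% beyond 300 bp. TPI1, RNU6ATAC38P and BHLHE40 were among the members with an AP-1 site.

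The TATA box TATAAA was in 44 members (3.31%), below the 9.04% of starts without a region (ratio 0.367, 0.272 to 0.493) and the 6.59% of all protein-coding starts. The YY1 site ATGGCGG was in 3.24% against 6.32% (0.512, 0.378 to 0.694; 8.06% of all starts) and the cAMP response element TGACGTCA in 0.678% against 1.45% (0.466, 0.238 to 0.912; 2.01% of all starts). TEAD sites (ACATTCC) were in 3.09% against 1.66% (1.86, 1.33 to 2.60; 1.35% of all starts). ZNF143 sites (ACTACAA) were in 2.56% against 1.65% (1.55, 1.08 to 2.23; 1.70% of all starts), and RUNX sites (AACCACA) in 3.39% against 2.28% (1.49, 1.09 to 2.04; 1.93% of all starts). Against the other promoter regions the interval of the ratio included 1 for each of these motifs. It was 1.44 (0.954 to 2.16) for TATA, 0.810 (0.562 to 1.17) for YY1 and 0.529 (0.248 to 1.13) for the cAMP response element. For TEAD it was 1.34 (0.882 to 2.03), for ZNF143 0.892 (0.586 to 1.36) and for RUNX 1.25 (0.844 to 1.85). Against the HRE class alone the TEAD interval did not include 1 (1.58, 1.004 to 2.48). With the shifted starts as background the intervals of the ZNF143 and RUNX ratios included 1, and that of the E-box variant CATGTG (0.779, 0.611 to 0.994) no longer did.

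For the remaining motifs the intervals of the ratio to the starts without a region included 1, apart from a pair of E-box variants. ETS sites (CCGGAAG) were in 8.28% of members (0.918, 0.760 to 1.11; 11.3% of all starts), and NRF1 sites (GCATGCGC) in 1.88% (0.955, 0.633 to 1.44; 2.93% of all starts). The other promoter regions held NRF1 sites more often (3.23%, ratio 0.583, 0.369 to 0.922), again without matching for GC content. Against the E-box class alone (2.27%) the interval included 1 (0.828, 0.343 to 2.00). E2F sites (TTCCCGC) were in 4.89% (0.960, 0.747 to 1.24; 5.73% of all starts) and ZBTB33 sites (TCTCGCG) in 2.18% (0.729, 0.499985 to 1.06; 3.64% of all starts). The nuclear receptor half-site AGGTCA was in 7.30% (1.01, 0.824 to 1.24; 6.72% of all starts). Of the E-box variants, CATGTG was in 5.12% (0.864, 0.677 to 1.10; 5.15% of all starts). CAGCTG was in 11.1%, below the starts without a region (0.763, 0.650 to 0.894; 13.8% of all starts), and CAGGTG in 11.4% (0.735, 0.629 to 0.860; 14.4% of all starts). Of the other promoter regions, 8.30% held CAGCTG, fewer than the members (ratio 1.34, 1.09 to 1.66). The E-box class alone held it at 11.7% (ratio 0.949, 0.660 to 1.37) and all regions at 11.6%. No motif of the 18 searched was found at 187 members (14.1%).

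**Figure D4:**
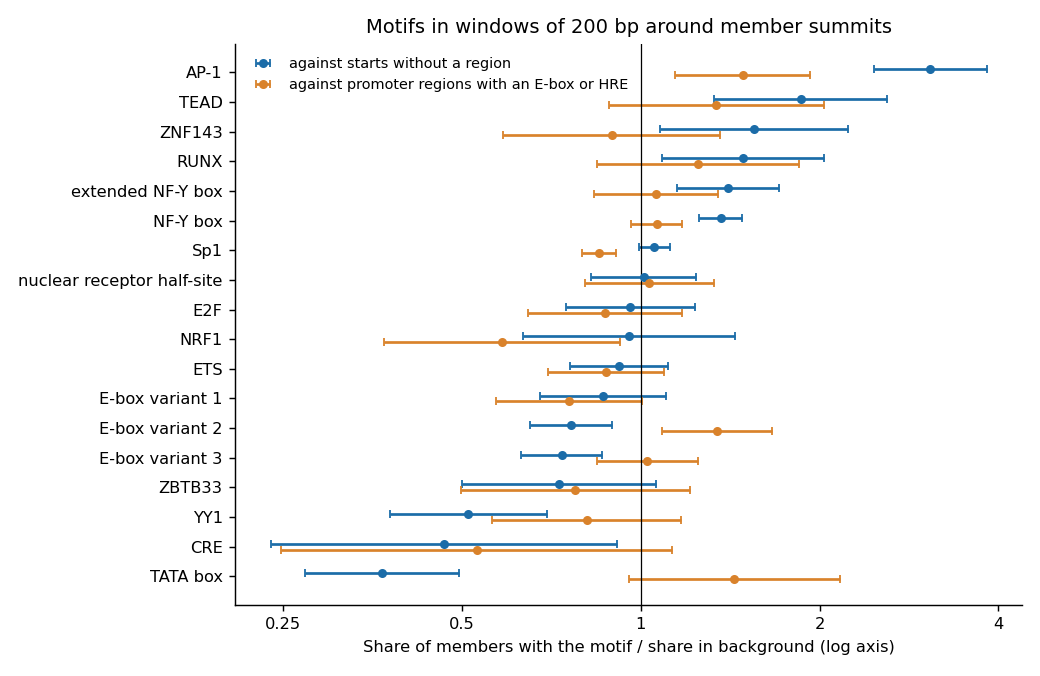
Ratio of the members' share with each motif to the share in protein-coding starts without a region (blue) and in promoter regions with an E-box or HRE (orange), on a log axis with 95% intervals. The NF-Y box is CCAAT, its extended form CCAATCA, and E-box variants 1, 2 and 3 are CATGTG for 1, CAGCTG for 2 and CAGGTG for 3. AP-1 stands at 3.07 and the TATA box at 0.367 against starts without a region.

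**Figure D5:**
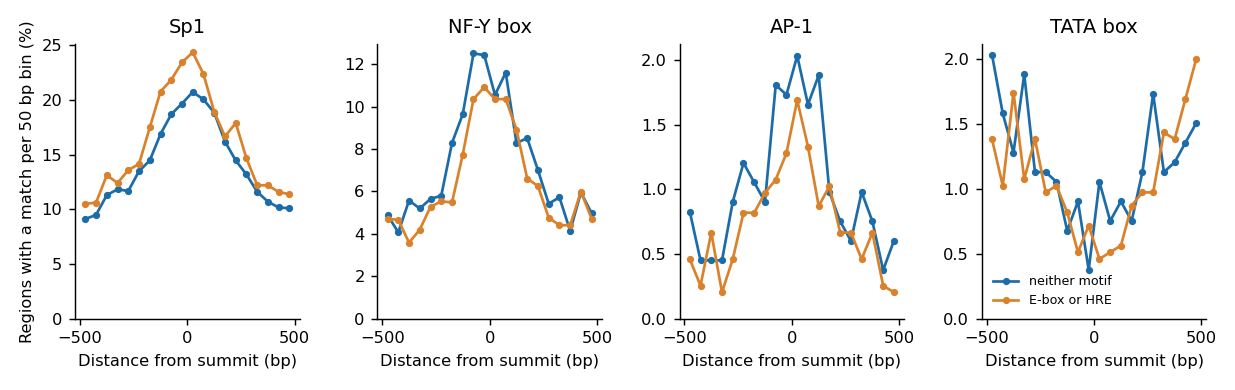
Share of regions with a match in each 50 bp bin (y axis, percent, separate scale per motif) by distance of the bin centre from the summit (x axis, bp), for members (blue) and promoter regions with an E-box or HRE (orange). In the members Sp1, the NF-Y box (CCAAT) and AP-1 peak around the summit, and the TATA box has its lowest bin there.

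The motifs differed between members with BMAL1 peaks alone (748), HIF2α peaks alone (362) and both (218). An Sp1 box was in 52.9% of the BMAL1 group, 37.0% of the HIF2α group and 55.0% of the shared group. The BMAL1 group exceeded the HIF2α group by 15.9 points (9.70 to 21.9), and by 6.10 points (0.772 to 11.4) within bins of 5% GC content, a comparison added after the data were seen. The median GC content of these groups was 62.5%, 57.5% and 60.5%. A CCAAT box was in 32.9%, 28.5% and 47.2% of the same groups. The shared group exceeded the BMAL1 group by 14.4 points (6.98 to 21.7; 12.6 within GC bins) and the HIF2α group by 18.8 points (10.7 to 26.7; 19.8 within GC bins). AP-1 sites were in 8.82%, 6.08% and 8.26%, and the BMAL1 and HIF2α groups differed by 2.75 points (−0.726 to 5.78), or 4.89 points within GC bins (1.61 to 8.16). Regions in the shared group were wider, with a median of 467.5 bp against 227 bp and 201.5 bp, but the window searched was 200 bp in all.

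Sp1 boxes also went with whether a BMAL1 peak was found again after knockdown. Of the members in the shCNT BMAL1 list, 56.6% of those with an Sp1 box and 38.3% of those without had a shBMAL1 BMAL1 peak, a difference of 18.3 points (8.99 to 27.2). Within quartiles of shCNT strength the difference was 11.9 points (2.65 to 21.2), and within GC bins 15.8 points (4.33 to 27.4), both added after the data were seen. For the HIF2α antibody the shares were 38.5% and 38.7%, a difference of −0.212 points (−10.5 to 10.1). For CCAAT, AP-1 and ETS the intervals of the difference included 0 with both antibodies.

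The nearest gene was protein-coding for 987 members (74.3%) and a long non-coding RNA for 282 (21.2%), with 1282 distinct genes in all. Of 20087 protein-coding genes, 3022 had a promoter region and 1227 (6.11%) had a member, of which 367 were in the shBMAL1 HIF2α list. In the gene lists the share with a member was 11 of 59 splicing factors (18.6%), 11 of 81 chaperones (13.6%), 12 of 93 ubiquitin enzymes (12.9%) and 43 of 508 zinc finger proteins (8.46%). It was 8 of 84 ribosomal proteins (9.52%), 7 of 68 translation factors (10.3%), 4 of 39 proteasome subunits (10.3%) and 2 of 83 oxidative phosphorylation subunits (2.41%). The lists also differ in how many of their promoters had any region. Of the genes with a promoter region, 40.6% had a member over all protein-coding genes. This share was 45.8% for splicing factors, 46.2% for ubiquitin enzymes, 52.4% for zinc finger proteins and 53.3% for ribosomal proteins. It was lower for chaperones (37.9%), proteasome subunits (36.4%), translation factors (35%) and oxidative phosphorylation subunits (22.2%). No list was tested against the others.

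Among splicing factors, HNRNPK, an RNA-binding protein of the hnRNP family, was in all 4 lists with 5 and 6 reads for the BMAL1 antibody and 8 and 10 reads for the HIF2α antibody, shCNT first. HNRNPL was in 3 lists with 10, 8 and 8 reads, all but shBMAL1 HIF2α. SRSF6, a serine- and arginine-rich splicing factor, was in the HIF2α lists alone with 13 and 15 reads. Both HNRNPK and HNRNPL had a CCAAT box and an Sp1 box at the summit, and SRSF6 had a CCAAT box. Of the ubiquitin enzymes, UBE2D2, a ubiquitin-conjugating enzyme, had 21 reads in shCNT HIF2α and 9 in shBMAL1 HIF2α, and USP16, a deubiquitinase of histone H2A, had 17 and 8 reads in the same lists and 8 reads in shCNT BMAL1. The chaperonin subunit CCT6A was in all 4 lists with 7, 6, 6 and 5 reads. The 8 ribosomal protein members were each in 1 list, with 3 to 7 reads. Of all members 70.1% were in 1 list, and their median pileup was 5 or 6 reads in each list. These genes were chosen for display after their values were seen.

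Of the 23 clock genes, 16 had a promoter region and 6 had a member, or 37.5% of those with a region against 40.6% over all protein-coding genes. PER2, a repressor of the clock, had 13 reads in shCNT BMAL1, 6 in shBMAL1 BMAL1 and 6 in shBMAL1 HIF2α. BHLHE40, the repressor DEC1 that is also a HIF target, had 19 and 14 reads in the HIF2α lists, shCNT first, and 8 reads in shCNT BMAL1. BMAL1, described above, and CRY2, a repressor with 5 reads, were in shCNT BMAL1 alone. BHLHE41 had 4 reads in shBMAL1 BMAL1 and CLOCK 3 reads in shBMAL1 HIF2α. A core within 120 bp lay beside PER2 and BHLHE40, the members of this group with more than 1 list.

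Of the 32 HIF target genes, 25 had a promoter region and 7 had a member. Of these 7, 5 were in the shCNT HIF2α list and 6 in the shBMAL1 HIF2α list. Of all 1227 protein-coding genes with a member, 338 and 367 were in these lists. The 7 were 28% of those with a region, against 40.6% over all protein-coding genes. PDK1, the kinase that turns off pyruvate dehydrogenase, had 25 and 13 reads in the HIF2α lists, shCNT first, and 8 reads in shCNT BMAL1. EGLN1, the oxygen-sensing prolyl hydroxylase PHD2, had 13 and 6 reads in the HIF2α lists, shCNT first, and 3 reads in the shBMAL1 BMAL1 list. ADM, the vasodilator adrenomedullin, had 10 reads in shCNT HIF2α alone, and TPI1, a glycolytic enzyme, had 8 and 4 reads in the HIF2α lists. SLC2A1, the glucose transporter GLUT1, had a member at its divergent transcript with 5 reads in shCNT BMAL1 and 7 in shBMAL1 HIF2α. EGLN3, the prolyl hydroxylase PHD3, had 3 reads in shBMAL1 HIF2α. With ANKRD37, PDK1 and EGLN1 had the highest HIF2α pileups of these genes, and each had a core at over 100 and up to 120 bp. Of the 26 immediate early genes, 7 had a promoter region, and JUND was the 1 with a member, at 4 reads in shBMAL1 HIF2α. That is 14.3% of those with a region, against 40.6% over all protein-coding genes.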

How the data were processed

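CUT&RUN peak lists of A498 cells were analysed. Reads were mapped by the authors to hg19 using Bowtie2 (2.5.3). The authors then removed duplicates, called peaks with MACS2 (2.2.9.1) at p 1e-05 and removed blacklisted intervals with bedtools (2.31.1). Whether replicates were pooled and which control was used is not given in the sources used here, and read totals are unknown. The deposited columns used were the fold enrichment (pileup over local background, each plus 1), the −log10 p-value and the summit offset. The deposited score (10 times the −log10 p) and −log10 q-value were not used. Pileup and background were recovered from fold and −log10 p, and a whole-number pileup was found for 100% of peaks. All peaks lay inside GRCh37 chromosomes.

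Regions, presence and motifs were computed in Python (3.11.15) with pysam (0.24.0), and transcript starts were those tagged basic in GENCODE release 44 lifted to GRCh37. Lists were compared by shares with Wilson and Newcombe 95% intervals, ratios with log-scale intervals and Mantel-Haenszel differences with Sato's variance. No p-value was computed, since regions are not replicates and each group had 1 list. The steps were tested on simulated data. The members, motifs and gene lists were chosen with earlier results of these data known. Named genes were the 3 strongest members of each list, the 5 members in all 4 lists with the highest minimum percentile, the strongest of the single-list and single-antibody patterns and of 9 motifs, and members at clock, HIF target and immediate early genes. Alternatives covered the peak threshold, list length, motif window, promoter width, starts, merging and motif background. The 16 other libraries carry no list used here.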

Additional observations from a re-analysis of the deposited data

How the results depend on the processing

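No paired analysis was possible because each group had 1 peak list, and for the same reason no replicate could be left out. Over 16 alternatives and 25 results, 266 of the 337 values computed were counted as unchanged. For a difference, a ratio or a share of pairs, this meant the same direction and an interval that still excluded, or still included, no difference. Its size could move: the HIF2α difference in shares found again ran from −38.5 to −8.75 points around −21.0. For any other share, unchanged meant a value within the interval of the main result. The CCAAT, AP-1 and TATA ratios kept their direction under all 16, as did the lower share in more than 1 list and the lower HIF2α share found again under the 13 that could change them.

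With −log10 p of at least 8, there were 668 members, the BMAL1 difference in shares found again was 2.72 points (3.36 within strength quartiles), the HIF2α difference within quartiles was −7.93 with an interval including 0, the Sp1 ratio was 1.21, and members were the stronger of a pair in 47.4% of shCNT BMAL1 pairs, with an interval including 50%. With lists of equal length, the share in more than 1 list was 32.9%, the shares found again were 40.6% (BMAL1) and 32.8% (HIF2α), the BMAL1 difference within quartiles was 1.75 and the Sp1 ratio 1.10. With a pileup of at least 5 these were 34.7% in more than 1 list, a BMAL1 difference of 1.82 (3.96 within quartiles) and an Sp1 ratio of 1.14. With motifs barred within 50 bp there were 2112 members, 34.7% in more than 1 list, 49.5% of HIF2α peaks found again, differences within quartiles of 0.291 (BMAL1) and −5.07 (HIF2α, interval including 0) and an Sp1 ratio of 1.10. With 200 bp there were 683 members, 27.1% in more than 1 list, 32.4% of HIF2α peaks found again, a BMAL1 difference within quartiles of 2.41 and an Sp1 ratio of 0.964. With no motif at any summit of a region, which by construction searches more bases in shared regions, 20.7% were in more than 1 list, 39.6% of BMAL1 and 23.1% of HIF2α peaks were found again, and the BMAL1 difference was −15.5 (−11.9 within quartiles). With peaks merged at 50% overlap, 26.8% were in more than 1 list, and with protein-coding starts alone the BMAL1 difference within quartiles was 0.453. The Sp1 ratio was further 1.13 with starts within 500 bp, 0.941 and so reversed with starts within 2 kb, 1.18 with protein-coding starts alone, 0.964 with starts of all transcripts, 1.07 with peaks merged within 400 bp, 8.19 against windows 2 kb away and 1.29 at matched GC content. Beyond what the settings change by construction, the cause was not tested.

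The median pileup of the members was 5 or 6 reads in each list, total read depth is unknown, and absence from a list says only that no peak passed the threshold there.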

Other observations

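All 7-base words were ranked by the ratio of their share in members to that in starts without a region, a scan added after the data were seen and not tested. Of 3641 words, ATGAGTC, which overlaps the AP-1 site, ranked 1, in 3.92% of members against 1.09% of these starts (ratio 3.61). TGACTCA itself ranked 3 (ratio 3.07). The scan did not single out AP-1: ACTTAGG ranked 2 (ratio 3.10) and CTTAGGC, which overlaps it, ranked 4 (ratio 2.92). Neither is part of the AP-1 site.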
